A study of Homo sapiens with 8 samples.

Results

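The G1/S and DNA replication genes described here are 47 genes chosen by name, and all 47 had exactly 1 row in each deposited table, out of the 24077 genes that both tables hold. They comprise 12 genes of the replicative helicase, 5 of origin licensing, 6 of the sliding clamp and clamp loaders, 7 of the polymerases and primase, 5 of strand processing and fork stability, 4 of nucleotide supply, 5 of the cyclin E and E2F families, and 3 of chromatin assembly and histone mRNA processing. The cells were AML-OCI3, a human acute myeloid leukaemia line grown in RPMI with serum. They received DMSO, the vehicle, or 40 nM JIB-04, an inhibitor of Jumonji-domain histone demethylases, and were collected at 24 h or 48 h, which gave 4 groups of 2 poly(A) RNA-seq libraries. The labels name no other drug and no genetic change in any group. Nothing says that the replicates were separate cultures, so p-values measure only the spread between these libraries, which may be technical.

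Genes of the G1/S transition are switched on late in G1, when cyclin-dependent kinases phosphorylate the retinoblastoma protein and release E2F transcription factors. Their products license replication origins in G1, open the helix, and copy the DNA in S phase, so their mRNAs are high in populations that are proliferating and low in resting cells. In leukaemia lines they are therefore read as a measure of how much of the culture is in or near S phase. In bulk RNA, fewer cells expressing a gene and less of its RNA in each cell cannot be told apart.

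Binding of E2F factors to promoters is the feature by which the class is known, and 7 promoters are shown here because the results return to several of these genes. RefSeq (GRCh38.p14) held a promoter window, 250 bases before to 50 after the gene start, for 39 of the 47 genes. MCM4, MCM5, GINS4, DSCC1, POLD3, RPA2, CCNE2 and E2F8 are named without one. The 180 bases before the start are printed 5′ to 3′ on the strand of the gene, with capitals at any of the E2F-type words TTTGGCGC, TTTCCCGC, TTTCGCGC and TTTGCCGC on either strand. In the main fit described below, MCM3 had the smallest adjusted p of the 47 at 24 h and POLA2 the smallest between the DMSO groups. MCM6, GINS2, PCNA and E2F1 show other arrangements of the words, and FEN1 shows a window with none.
MCM3 promoter, chr6:52284743-52284922, minus strand: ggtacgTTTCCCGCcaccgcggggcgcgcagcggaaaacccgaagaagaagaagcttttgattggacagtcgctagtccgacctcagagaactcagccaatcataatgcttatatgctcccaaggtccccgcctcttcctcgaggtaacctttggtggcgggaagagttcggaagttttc
MCM6 promoter, chr2:135876444-135876623, minus strand: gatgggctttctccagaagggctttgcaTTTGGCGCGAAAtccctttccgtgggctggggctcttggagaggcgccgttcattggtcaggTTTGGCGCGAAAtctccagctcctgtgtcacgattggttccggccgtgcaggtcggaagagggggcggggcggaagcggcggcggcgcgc
GINS2 promoter, chr16:85688955-85689134, minus strand: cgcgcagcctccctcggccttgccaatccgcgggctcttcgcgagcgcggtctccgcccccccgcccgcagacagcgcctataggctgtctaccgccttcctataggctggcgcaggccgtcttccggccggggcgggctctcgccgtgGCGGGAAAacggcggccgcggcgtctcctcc
POLA2 promoter, chr11:65261782-65261961, plus strand: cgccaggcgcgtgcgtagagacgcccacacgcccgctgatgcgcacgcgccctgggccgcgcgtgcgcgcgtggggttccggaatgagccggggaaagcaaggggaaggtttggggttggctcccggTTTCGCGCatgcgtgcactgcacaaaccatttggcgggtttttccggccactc
PCNA promoter, chr20:5126623-5126802, minus strand: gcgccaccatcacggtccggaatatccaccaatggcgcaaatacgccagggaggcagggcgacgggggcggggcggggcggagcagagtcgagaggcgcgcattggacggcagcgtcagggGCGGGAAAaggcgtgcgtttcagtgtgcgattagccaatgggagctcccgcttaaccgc
E2F1 promoter, chr20:33686386-33686565, minus strand: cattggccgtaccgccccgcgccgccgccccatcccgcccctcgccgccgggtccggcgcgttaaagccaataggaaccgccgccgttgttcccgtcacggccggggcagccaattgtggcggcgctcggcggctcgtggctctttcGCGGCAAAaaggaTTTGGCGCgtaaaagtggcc
FEN1 promoter, chr11:61792731-61792910, plus strand: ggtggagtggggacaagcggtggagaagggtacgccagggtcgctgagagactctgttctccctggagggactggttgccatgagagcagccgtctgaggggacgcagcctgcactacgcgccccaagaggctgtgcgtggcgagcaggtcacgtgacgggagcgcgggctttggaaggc

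The 4 words were found in 22 of the 39 windows (56.4%), against 3.99% of all 27305 genes with a window. With only TTTGGCGC and TTTCCCGC the share was 51.3%, against 2.75%. The class is known by E2F binding, so the choice of genes favoured both shares. The comparison genes were not matched for expression or promoter GC content. In MCM6 a TTTGGCGC on the strand of the gene overlapped a TTTCGCGC on the other strand at 2 places, starting 152 and 90 bases before the start. In MCM3 a TTTCCCGC began 174 bases before the start, and a TTTCGCGC that spans the start lies partly beyond the printed stretch. In POLA2 the word began 53 bases before the start and in PCNA 59. E2F1, which encodes an E2F factor itself, held a TTTGCCGC and a TTTGGCGC, 33 and 20 bases before the start. The letters CCAAT or ATTGG, of the NF-Y type and whose last letter can coincide with the start of an E2F-type word, were in 59% of the members' windows and 39.7% of all genes' windows. TTTGAA or TTCAAA, of the type found in G2/M promoters, was in 1 member's window, that of RRM1 (2.56%, against 18.2%). A match describes letters in a window and is not a binding site.

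Library totals were between 18783093 and 22193377 counts, and 21394 to 22176 genes were detected in each library. Among 14 myeloid markers 13 had rows and 12 reached 1 CPM (a library's counts scaled to a common total) in every library, with summed levels of 695 to 870 CPM. Of the lymphoid, erythroid, epithelial and fibroblast markers, NKG7 alone reached 1 CPM in every library, at 4.67 to 11 CPM. The replicates of 3 groups differed along the GC content of genes, and this touched the members directly. Over the 47 genes, Spearman's rho between GC content and the log2 ratio of replicate 1 to replicate 2 was -0.793 in DMSO at 24 h, 0.896 under JIB-04 at 24 h, 0.893 under JIB-04 at 48 h and 0.107 in DMSO at 48 h. The genes of each rho share the same pair of libraries. The 10 members with a GC content of at least 55% had a median log2 ratio of -0.44 in DMSO at 24 h, 0.40 under JIB-04 at 24 h, 0.31 under JIB-04 at 48 h and 0.03 in DMSO at 48 h. The 12 members under 45% had medians of 0.19, -0.29, -0.23 and -0.04 in the same order.

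**Figure D1:**
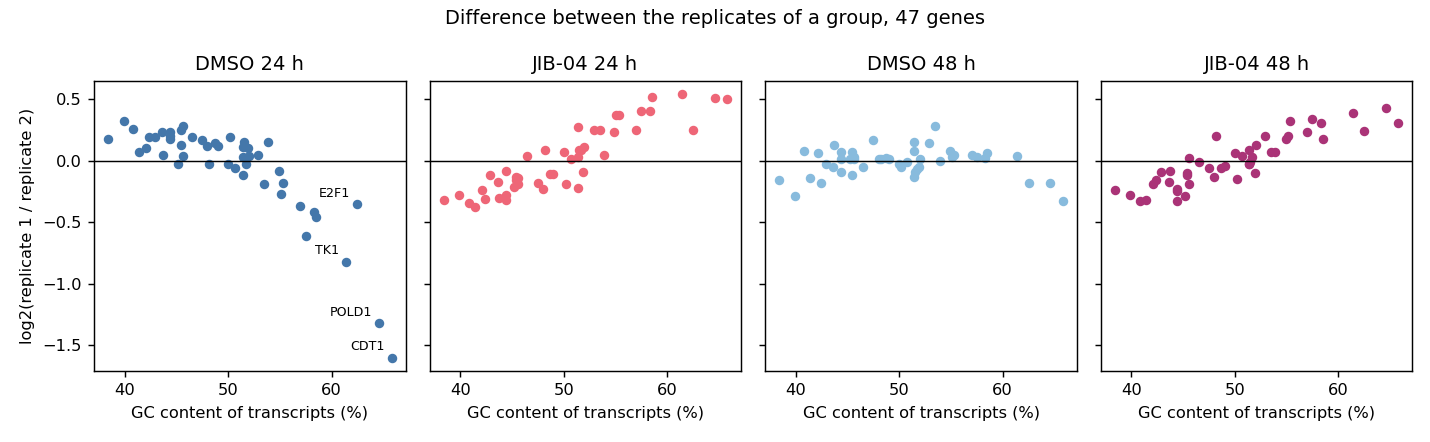
Log2 ratio of replicate 1 to replicate 2 (y axis, from CPM) against the GC content of the gene's transcripts in percent (x axis) for the 47 genes, 1 panel per group. The points slope down in DMSO at 24 h (rho -0.793), up in both JIB-04 groups (0.896 and 0.893) and stay near 0 in DMSO at 48 h, and CDT1 and POLD1 lie lowest in the DMSO 24 h panel.

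CDT1, the licensing factor that helps load the helicase onto origins, was the extreme case, with a GC content of 65.8%. Its 2 libraries in DMSO at 24 h held 24.6 and 74.6 CPM. POLD1, the catalytic subunit of DNA polymerase delta (64.6% GC), held 53.9 and 135 CPM in the same libraries. TK1, the thymidine kinase that recovers thymidine for DNA synthesis (61.4% GC), held 120.4 and 213 CPM. In all 3 genes the spread inside DMSO at 24 h was wider than any difference between group means, so comparisons with that group carry a large error for them. All comparisons were therefore read in 2 ways, from the main edgeR fit and from the same fit after each library's trend along GC content had been subtracted (the GC trend removed). The trend was estimated from the same counts without spending degrees of freedom.

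On a scale that allows genes to be set beside each other, TPM (a scaled measure that accounts for transcript length), the members covered a wide range of levels. MCM7, a helicase subunit, had the highest mean over the 4 groups, at 463 TPM in DMSO at 24 h, 387 under JIB-04 at 24 h, 335 in DMSO at 48 h and 334 under JIB-04 at 48 h. TYMS, thymidylate synthase, followed at 438, 409, 308 and 311 TPM, above MCM7 under JIB-04 at 24 h. MCM4 had 303, 272, 224 and 217 TPM, and PCNA, the sliding clamp, had 288, 247.5, 222 and 242 TPM. At the other end stood E2F2 with 1.99, 1.41, 1.85 and 1.24 TPM and E2F8 with 6.62, 5.37, 5.09 and 4.55 TPM.

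**Figure D2:**
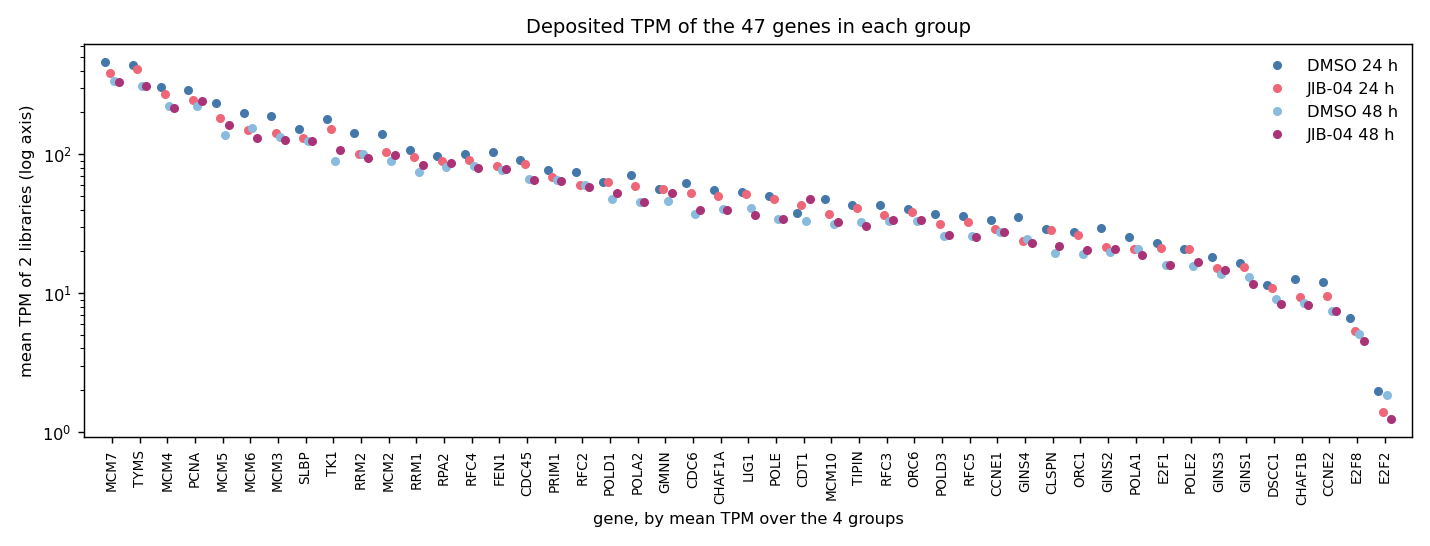
Mean deposited TPM of 2 libraries (y axis, log scale) for each of the 47 genes (x axis, ordered by the mean of the 4 groups), with 1 colour per group. Levels run from 463 TPM for MCM7 to below 2 TPM for E2F2, and the DMSO 24 h point is the highest of the 4 for 45 of the 47 genes.

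Across the 4 groups, the level of nearly every member was highest in DMSO at 24 h. The mean CPM was highest in that group for 45 of 47 genes, and the mean TPM for 45 of 47. The share of all tested genes with their highest mean in that group was not computed. CDT1 was highest under JIB-04 at 48 h on both scales, GMNN, the inhibitor of CDT1, was highest there by CPM, and POLD1 was highest under JIB-04 at 24 h by TPM. Taken as a share of all counts, the 47 genes held 0.664% and 0.712% in the DMSO libraries at 24 h. They held 0.586% and 0.541% under JIB-04 at 24 h, 0.506% and 0.507% in DMSO at 48 h, and 0.542% and 0.513% under JIB-04 at 48 h. Both DMSO libraries at 24 h lay above all 6 others, and among those 6 the JIB-04 and DMSO groups of 48 h did not overlap. Relative to DMSO at 24 h, the median member stood at 83.3% under JIB-04 at 24 h (range 69.7% to 107%), 75.5% in DMSO at 48 h (52.1% to 91.9%) and 79.4% under JIB-04 at 48 h (68% to 132%). For 25 of the 47 genes both DMSO 24 h libraries exceeded all 6 others, against 4.85% of all 15248 tested genes.

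**Figure D3:**
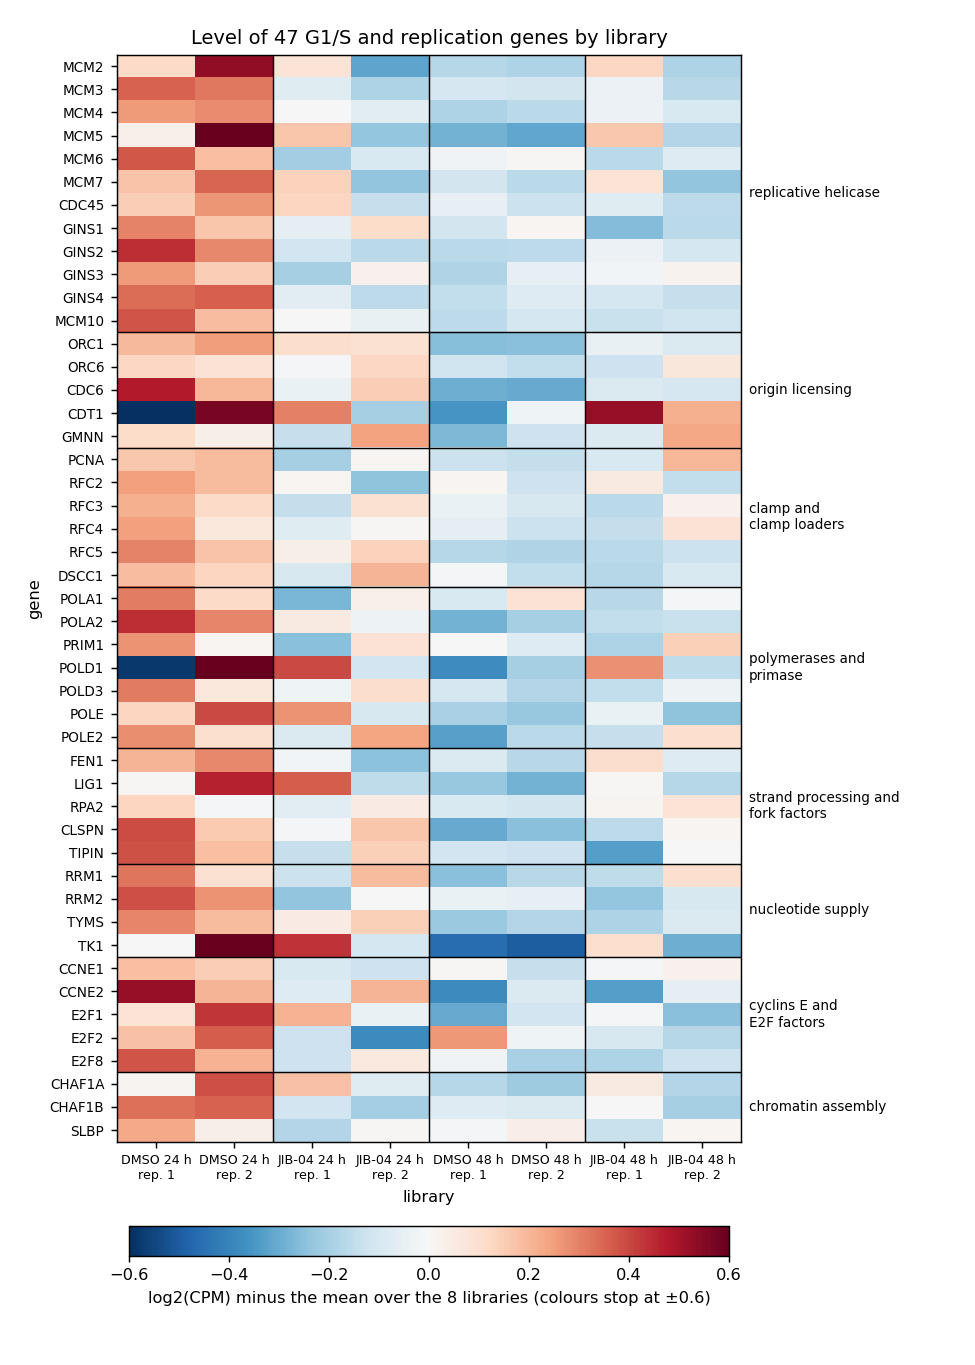
Deviation of each gene's log2 CPM from its mean over the 8 libraries (colour, red above and blue below) for 47 genes (rows, by role) and 8 libraries (columns). The left pair of columns, DMSO at 24 h, is red in most rows and the other 6 are mostly pale or blue, with CDT1 and POLD1 blue in DMSO 24 h replicate 1.

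With JIB-04 at 24 h, 46 of the 47 genes had a lower fitted level than in DMSO, by a median of 0.26 on the log2 scale (median log2 fold change -0.26, against 0.02 over all tested genes). Of all 15248 tested genes 7156 were below 0. The 2 JIB-04 libraries lay below both DMSO libraries for 30 genes and above them for 0, where 15.6% of all tested genes lay below. In the main fit (edgeR's quasi-likelihood F test with Benjamini-Hochberg adjustment over 15248 genes), 0 members passed an adjusted p of 0.05, as did 0% of all genes. DESeq2 passed 1, as lower, where it passed 0.21% of all genes as lower, and limma-voom passed 0. The smallest adjusted p of a member was 0.211, for MCM3. At an unadjusted p under 0.05, 13 members were lower and 0 higher, where 4.06% of all genes were lower. With the GC trend removed, 26 members passed, all lower, against 5.17% of all genes lower, and the median log2 fold change was -0.28. The median in that fit was -0.29 for the 22 genes with an E2F-type word in their promoter window. It was -0.25 for the 17 with a window but no word, a difference that was not tested. Leaving out any 1 library of that fit lowered the count, most of all without a JIB-04 24 h library. Such a fit leaves 1 library in a group, and no share of all genes stands beside its count.

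In the DMSO cultures themselves the members were lower at 48 h than at 24 h. All 47 fitted log2 fold changes were below 0 in the main fit, with a median of -0.41 (0.01 over all tested genes), and 46 with the GC trend removed, where CDT1 was at 0.13. In the main fit 7449 of all 15248 tested genes were below 0. For 43 genes both 48 h libraries lay below both 24 h libraries, where 18.7% of all genes did. No member passed in the main fit (0 of 47, with 0.426% of all genes passing), and the smallest adjusted p was 0.0759, for POLA2. DESeq2 passed 9 as lower, where it passed 0.728% of all genes as lower, and limma-voom passed 0. At an unadjusted p under 0.05, 31 members were lower and 0 higher, against 5.38% of all genes lower. The median after GC removal was -0.41 for the 22 genes with an E2F-type word and -0.36 for the 17 with a window but no word. After GC removal 39 members passed as lower, against 7.32% of all genes. That count fell most when either DMSO 48 h library was left out, in fits with no share of all genes beside their counts. The JIB-04 comparison at 24 h and the time comparison share the DMSO 24 h libraries, so their counts are not independent of each other.

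At 48 h the members of the JIB-04 group stood close to, and mostly slightly above, those of the DMSO group. The median log2 fold change was 0.07 (0.01 over all genes). Of the members 35 were above 0 and 12 below, where 7972 and 7276 of all 15248 tested genes were. For 19 genes both JIB-04 libraries lay above both DMSO libraries, and for 4 below, where 25.8% and 23.7% of all genes did. The main fit passed 0 members, and 0.387% of all genes, with a smallest member adjusted p of 0.62, DESeq2 and limma-voom passed 0, and at an unadjusted p under 0.05 there were 0 members in either direction. With the GC trend removed, GMNN, RPA2, CLSPN and RRM1 passed as higher, 4 genes against 5.12% of all genes. That count fell when any library of 48 h or of JIB-04 at 24 h was left out, furthest for those of 48 h. It rose without either DMSO 24 h library. Those counts have no share of all genes beside them. In the authors' deposited table for 48 h, CDT1 alone of the 47 had an adjusted p under 0.05 (0.0282, log2 fold change 0.55), and in that for 24 h 0 of 47 did. The share of all genes called in those tables was not computed. In the edgeR fit with the GC trend removed, the change of CDT1 at 48 h was 0.18 (adjusted p 0.46).

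The change of the JIB-04 effect between 24 h and 48 h was tested as the difference of the 2 log2 fold changes. It was above 0 for all 47 genes, where 7783 of all 15248 tested genes were, with a median of 0.32 against 0.01 over all genes. Of the 47, 9 genes were higher at an unadjusted p under 0.05, where 2.17% of all genes were. In edgeR's main fit 0 members passed, with adjusted p of at least 0.931, as did 0% of all genes, and DESeq2 and limma-voom passed 0. With the GC trend removed, MCM2, MCM3, MCM4, MCM6, GINS4, CDC6, PCNA, POLA2, FEN1, CLSPN and RRM1 passed as higher, 11 genes against 0.826% of all genes. The difference uses the 24 h libraries again, so a lower level at 24 h enters it. The count fell sharply when a JIB-04 24 h library or any library of 48 h was left out, with no share of all genes beside it. In the JIB-04 cultures the members differed little between the times, with a median log2 fold change of -0.05 at 48 h against 24 h (0.01 over all genes). Of the members 28 were below 0 and 19 above, where 7487 and 7757 of all 15248 tested genes were. There 0 members passed in edgeR's main fit, with 0.203% of all genes passing, 0 passed by DESeq2 and limma-voom, and TYMS alone was lower at an unadjusted p under 0.05, where 4.14% of all genes were. After GC removal POLE and TK1 passed as lower, 2 genes against 3.23% of all genes. That count rose without either DMSO 24 h library or JIB-04 24 h replicate 2, and fell when any other library was left out. The share of all genes does not stand beside those counts.

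**Figure D4:**
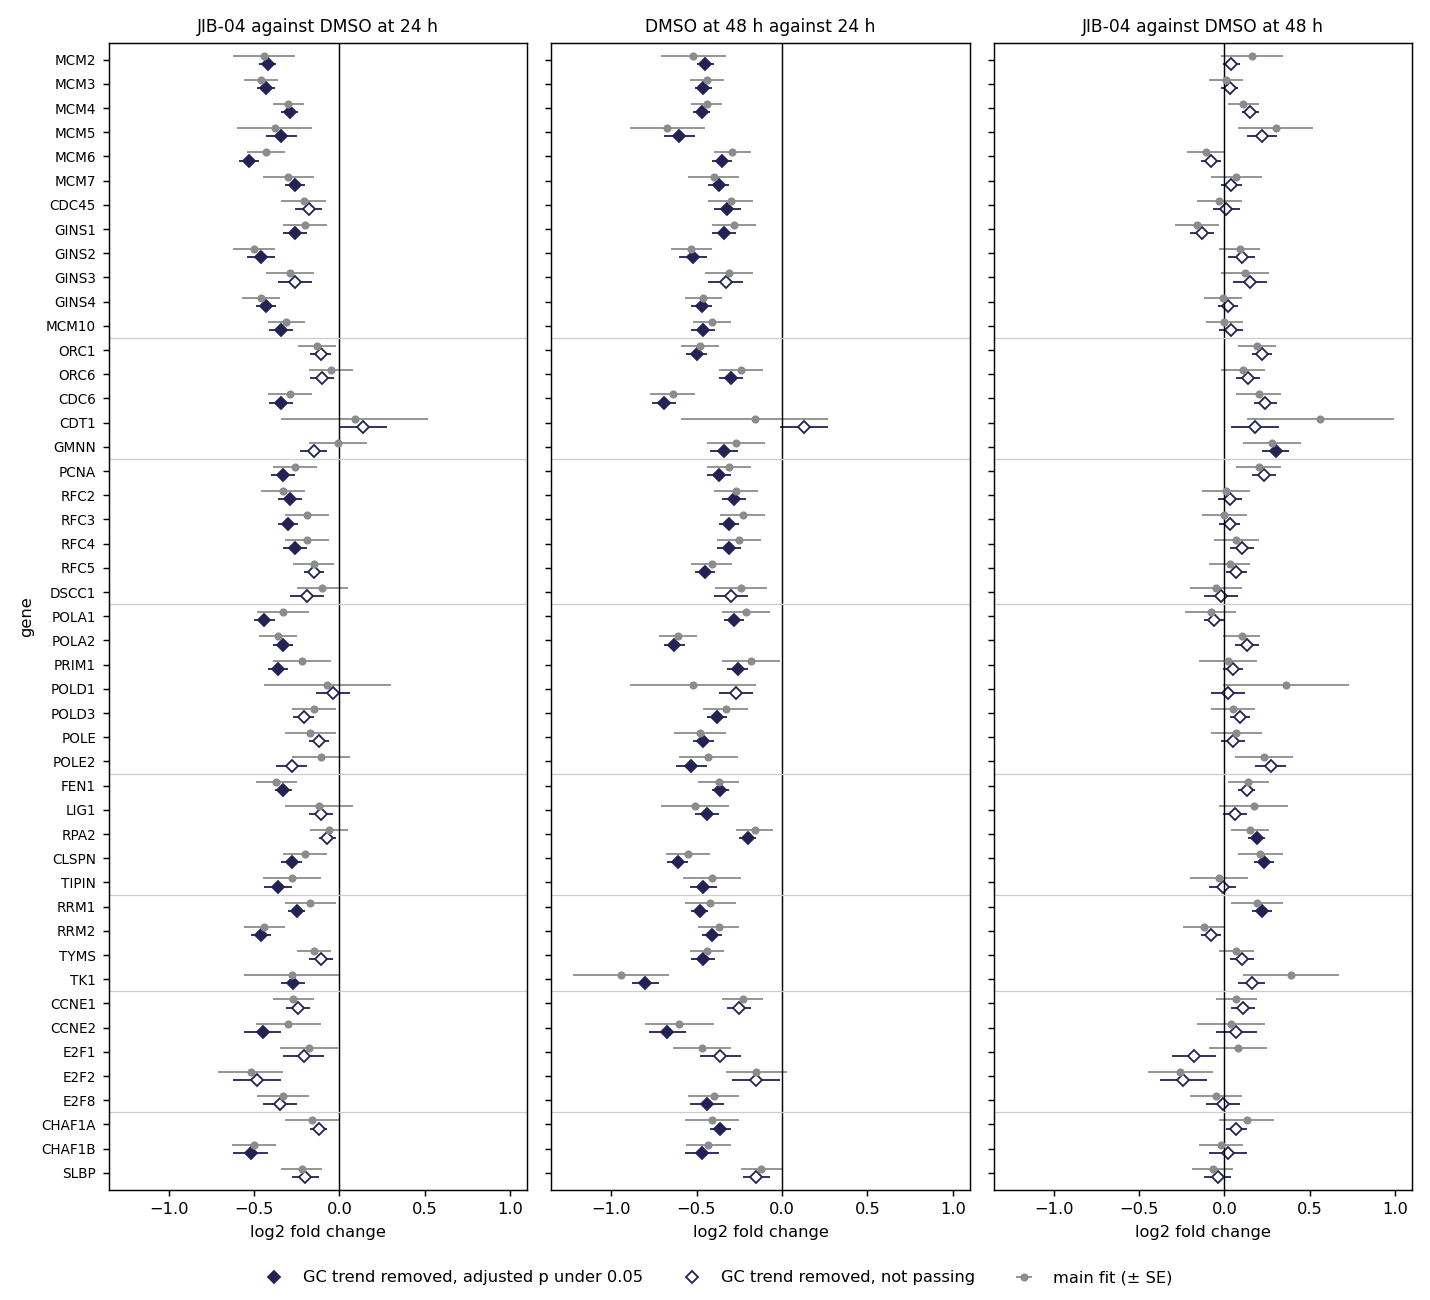
Log2 fold change ± SE (x axis) of the 47 genes (y axis, by role) in 3 comparisons, from the main fit (grey circles) and with the GC trend removed (diamonds, filled where the adjusted p is under 0.05). Most points lie left of 0 for JIB-04 at 24 h (26 filled) and for DMSO at 48 h against 24 h (39 filled), and around or right of 0 for JIB-04 at 48 h (4 filled).

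The replicative helicase, which MCM2 to MCM7 form with CDC45 and the GINS proteins, showed the lower level at 24 h in all 12 of its genes. The JIB-04 libraries of 24 h lay below both DMSO libraries for 11 of them, where 15.6% of all tested genes did. With the GC trend removed 10 passed as lower, against 5.17% of all genes. MCM3 held 406 and 395 CPM in DMSO at 24 h, 302 and 279 under JIB-04 at 24 h, 296 and 294 in DMSO at 48 h, and 309.5 and 282 under JIB-04 at 48 h. Its DMSO 24 h libraries stood apart from the other 6, which overlapped. The log2 fold change of MCM3 was -0.46 ± 0.10 (SE) at 24 h and -0.44 ± 0.10 between the DMSO groups, with edgeR adjusted p of 0.211 and 0.133 in the main fit and 0.00116 and 0.000413 with the GC trend removed. GINS2, a subunit of the GINS complex, held 60.6 and 54.5 CPM in DMSO at 24 h, 41.2 and 39.9 under JIB-04 at 24 h, 39.9 and 40.0 in DMSO at 48 h, and 43.6 and 41.5 under JIB-04 at 48 h. It too stood above the rest in DMSO at 24 h alone, and its change under JIB-04 at 24 h, -0.50 ± 0.12, was the lowest in the helicase list in the main fit (with the GC trend removed MCM6 was lowest, at -0.53, and GINS2 was at -0.46). MCM2, richer in GC at 58.3%, held 306 and 409 CPM in DMSO at 24 h, 299 and 227 under JIB-04 at 24 h, 251 and 248 in DMSO at 48 h, and 308 and 248 under JIB-04 at 48 h. Its spread was wide in 3 groups and narrow in DMSO at 48 h. The SE of its change at 24 h was 0.18 in the main fit (-0.44) and 0.05 with the GC trend removed (-0.42, adjusted p 0.00166).

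MCM5, another subunit of the ring (57.5% GC), held 232 and 354 CPM in DMSO at 24 h, 255 and 194 under JIB-04 at 24 h, 187 and 183 in DMSO at 48 h, and 255 and 201 under JIB-04 at 48 h. Its 24 h groups overlapped, while both JIB-04 libraries of 48 h lay above DMSO of the same time, by 0.30 ± 0.22 on the log2 scale, the highest change in the helicase list at 48 h in both fits. CDC45, which activates the ring, was less clearly separated. It held 104 and 113 CPM in DMSO at 24 h, 103 and 85.3 under JIB-04 at 24 h, 90.9 and 85.8 in DMSO at 48 h, and 89.4 and 84.3 under JIB-04 at 48 h. The change at 24 h was -0.21 ± 0.13 and did not pass in either fit. GINS1 was the helicase gene with the lowest change at 48 h in both fits (main fit -0.16 ± 0.13) and held 39.9 and 36.4 CPM, then 31.2 and 35.0, then 30.1 and 32.7, and 27.1 and 29.1 CPM in the 4 groups in the same order. Its JIB-04 libraries of 48 h were the lowest of all 8.

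**Figure D5:**
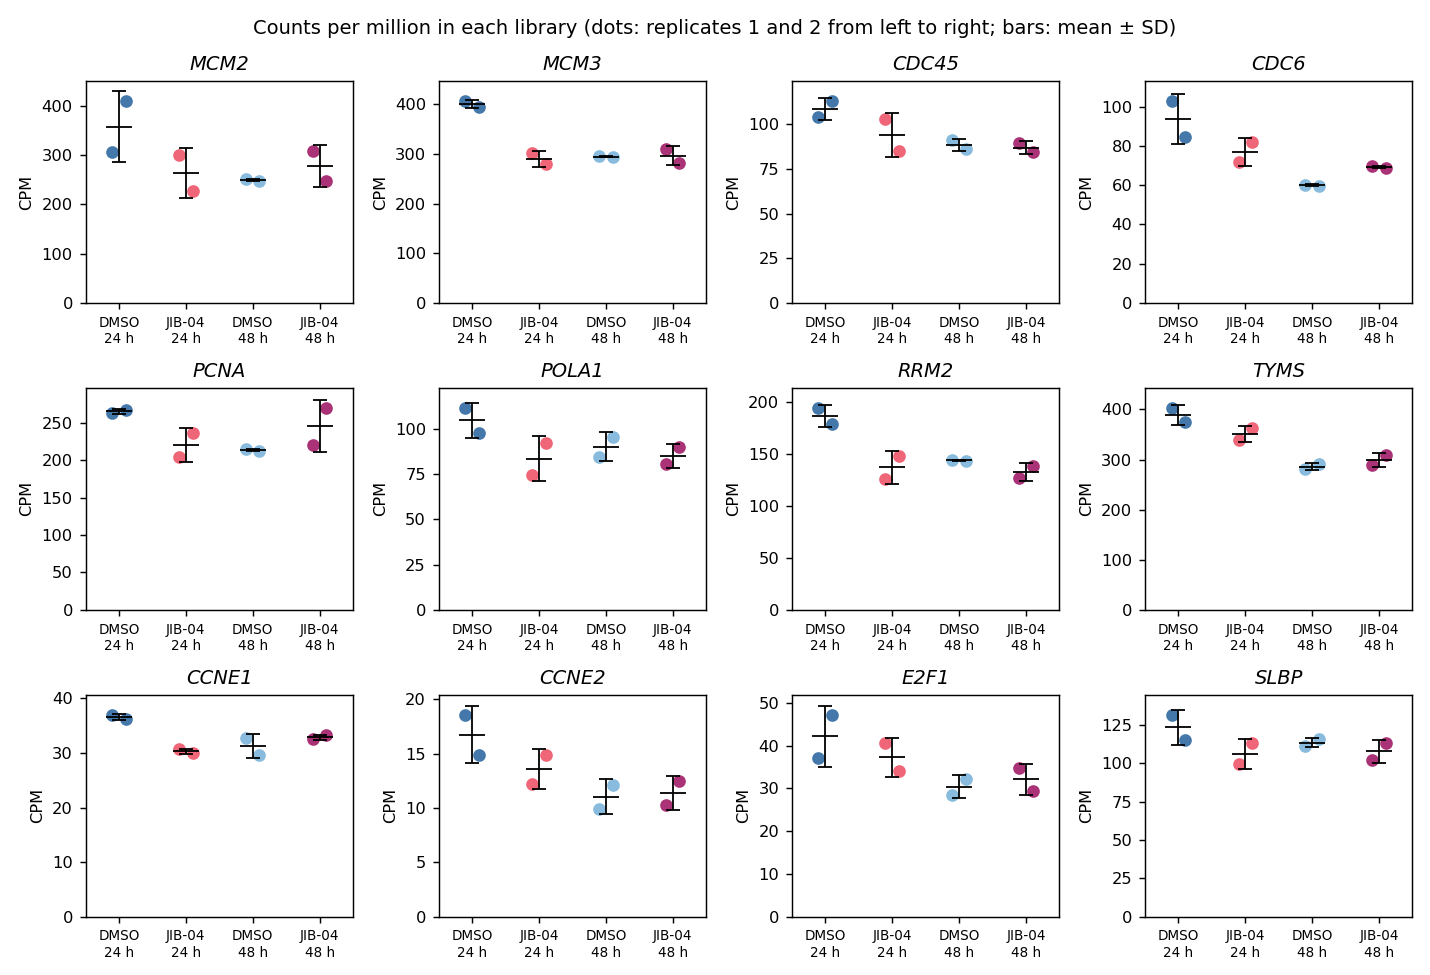
CPM (y axis, from 0) in each library for 12 of the genes, 1 panel per gene, with dots for replicates 1 and 2 and bars for the mean ± SD of 2 libraries in each group (x axis). MCM3, RRM2 and CCNE1 show the DMSO 24 h libraries above all 6 others, while MCM2 and E2F1 show replicates that lie far apart at 24 h.

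Of the 5 origin licensing genes, 4 passed as lower between the DMSO groups, against 7.32% of all genes. With JIB-04 at 24 h 1 passed as lower, against 5.17% of all genes. Both counts are with the GC trend removed. CDC6, the ATPase that loads the helicase together with CDT1, held 103 and 84.7 CPM in DMSO at 24 h, 71.8 and 81.8 under JIB-04 at 24 h, 60.3 and 59.8 in DMSO at 48 h, and 69.6 and 68.8 under JIB-04 at 48 h. No groups compared at the same time overlapped: JIB-04 lay below DMSO at 24 h and above it at 48 h. Its log2 fold change was -0.29 ± 0.13 at 24 h, 0.20 ± 0.13 at 48 h and -0.64 ± 0.13 between the DMSO groups. In edgeR's main fit the adjusted p was 0.103 or more. It passed after GC removal at 24 h (adjusted p 0.0136), in the DMSO comparison (0.000315) and in the difference between the effects (0.58, adjusted p 0.0271). CDT1 held 24.6 and 74.6 CPM, then 62.0 and 43.8, then 39.4 and 49.4, and 72.3 and 58.3 CPM in the same order of groups. Only its 48 h groups did not overlap, with a change of 0.56 ± 0.43 in the main fit and 0.18 ± 0.14 with the GC trend removed.

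ORC6, a subunit of the origin recognition complex, held 42.0 and 40.9 CPM in DMSO at 24 h, 38.2 and 42.0 under JIB-04 at 24 h, 35.4 and 34.8 in DMSO at 48 h, and 35.3 and 40.4 under JIB-04 at 48 h. JIB-04 and DMSO overlapped at both times. GMNN, which keeps CDT1 from relicensing origins, was the licensing gene that passed at 48 h with the GC trend removed (0.30 ± 0.08, adjusted p 0.0477). In the main fit its change was 0.28 ± 0.17.

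PCNA, the clamp that holds polymerases on DNA, held 262 and 267 CPM in DMSO at 24 h, 204 and 237 under JIB-04 at 24 h, 214 and 213 in DMSO at 48 h, and 220.3 and 269 under JIB-04 at 48 h. JIB-04 lay below DMSO at 24 h and above it at 48 h without overlap, and replicate 2 at 48 h reached the level of DMSO at 24 h. The difference between the effects was 0.46 ± 0.18 in the main fit and 0.56 ± 0.10 with the GC trend removed (adjusted p 0.0292). Of the clamp loader genes RFC2 had the lowest change at 24 h in the main fit, -0.33 ± 0.13, from 75.6 and 72.8 CPM to 64.3 and 54.0, with 64.3 and 58.5 in DMSO at 48 h and 66.3 and 57.6 under JIB-04 at 48 h. DSCC1, part of an alternative loader, had the highest change at 24 h and the lowest at 48 h in this list in the main fit, and its JIB-04 and DMSO libraries overlapped at both times. It held 19.1 and 18.4 CPM, then 15.7 and 19.4, then 16.6 and 15.2, and 14.9 and 15.8 CPM. With the GC trend removed, PCNA, RFC2, RFC3 and RFC4 passed as lower at 24 h and RFC5 and DSCC1 did not, where 5.17% of all genes passed.

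Among the polymerases, POLA2, the regulatory subunit of DNA polymerase alpha, differed between all groups without overlap. It held 89.6 and 80.8 CPM in DMSO at 24 h, 68.4 and 64.4 under JIB-04 at 24 h, 54.1 and 57.5 in DMSO at 48 h, and 59.5 and 60.1 under JIB-04 at 48 h. DMSO at 24 h was highest and DMSO at 48 h lowest. The change was -0.36 ± 0.11 at 24 h and -0.61 ± 0.11 between the DMSO groups (main edgeR adjusted p 0.333 and 0.0759), and with the GC trend removed both passed (0.0117 and 0.00037). POLA1, the catalytic subunit, held 111 and 97.6 CPM, then 74.5 and 92.2, then 84.5 and 95.6, and 80.2 and 89.8 CPM. Its JIB-04 libraries of 24 h lay below DMSO, by -0.33 ± 0.15, and replicate 2 was closer to DMSO than replicate 1. POLD1 held 53.9 and 135 CPM, then 106 and 74.3, then 61.9 and 70.0, and 97.3 and 72.2 CPM. Its change at 24 h was -0.07 ± 0.37 in the main fit and -0.04 ± 0.10 with the GC trend removed.

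The strand processing and fork genes gave both kinds of pattern. FEN1, the flap endonuclease that trims Okazaki fragments, held 164 and 173 CPM in DMSO at 24 h, 140.5 and 119.8 under JIB-04 at 24 h, 134 and 126 in DMSO at 48 h, and 153 and 135 under JIB-04 at 48 h. The change was -0.37 ± 0.12 at 24 h, and the difference between the effects was 0.52 ± 0.17 (0.46 ± 0.07 with the GC trend removed, adjusted p 0.0215). CLSPN, which carries the checkpoint signal at stalled forks, held 83.8 and 71.2 CPM, then 63.6 and 71.7, then 51.8 and 53.7, and 57.3 and 64.5 CPM. DMSO at 48 h was its lowest group, by -0.55 ± 0.13 against 24 h, and JIB-04 at 48 h lay above it without overlap (0.21 ± 0.13, adjusted p 0.661 in the main fit and 0.0383 with the GC trend removed). RPA2, a subunit of the single-strand binding protein, had the smallest changes of the list at 24 h and between the DMSO groups in both fits. It held 109.7 and 99.6 CPM, then 96.3 and 104, then 94.2 and 93.1, and 102 and 106 CPM. TIPIN, a fork protection factor, held 36.6 and 31.8 CPM, then 25.5 and 30.9, then 25.9 and 25.7, and 22.3 and 28.1 CPM. Its JIB-04 libraries lay below DMSO at 24 h and overlapped DMSO at 48 h.

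The 4 genes of nucleotide supply were all lower in DMSO at 48 h than at 24 h without overlap, where 18.7% of all genes were. All 4 passed there with the GC trend removed, against 7.32% of all genes passing as lower. RRM2, the regulated subunit of ribonucleotide reductase, held 194 and 179 CPM in DMSO at 24 h, 126 and 148 under JIB-04 at 24 h, 144 and 144 in DMSO at 48 h, and 127 and 139 under JIB-04 at 48 h. Its JIB-04 libraries lay below DMSO at both times, by -0.44 ± 0.12 at 24 h and -0.12 ± 0.12 at 48 h. The change at 24 h passed with the GC trend removed (adjusted p 0.00173) and not in the main edgeR fit (0.277). TYMS held 403 and 375 CPM, then 339.9 and 363, then 281 and 291, and 289 and 309.7 CPM, so that all 48 h libraries lay below all 24 h libraries. Its change between the DMSO groups was -0.44 ± 0.10 and at 24 h -0.15 ± 0.10. TK1 held 120.4 and 213 CPM, then 163 and 112, then 88 and 85.7, and 129 and 98.5 CPM. The DMSO 48 h libraries were its lowest, with a change of -0.94 ± 0.28 against 24 h in the main fit, the largest of the 47, and -0.80 ± 0.08 with the GC trend removed (adjusted p 0.000254). In edgeR's main fit no gene of this list had an adjusted p under 0.131 there, and the DMSO 24 h libraries of TK1 lay far apart.

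CCNE1, the E-type cyclin that drives the kinase CDK2 into S phase, held 37.0 and 36.2 CPM in DMSO at 24 h, 30.7 and 30.0 under JIB-04 at 24 h, 32.8 and 29.7 in DMSO at 48 h, and 32.5 and 33.2 under JIB-04 at 48 h. The DMSO 24 h libraries stood above the rest, and the change at 24 h was -0.27 ± 0.12, which passed in neither fit. CCNE2, its paralogue, held 18.6 and 14.9 CPM, then 12.2 and 14.9, then 9.92 and 12.2, and 10.3 and 12.5 CPM. After GC removal it passed as lower at 24 h (-0.45 ± 0.11, adjusted p 0.0312) and between the DMSO groups (-0.67 ± 0.11, adjusted p 0.00454), against -0.30 ± 0.19 and -0.60 ± 0.20 in the main fit. E2F1, an activating E2F (62.5% GC), held 37.1 and 47.2 CPM, then 40.5 and 34.1, then 28.5 and 32.3, and 34.7 and 29.5 CPM. Its JIB-04 and DMSO libraries overlapped at both times, and the change at 24 h was -0.18 ± 0.17. E2F2, also an activator, held 6.64 and 7.57 CPM, then 5.39 and 4.51, then 7.04 and 5.76, and 5.49 and 5.21 CPM. Both JIB-04 groups lay below DMSO of the same time, by -0.52 ± 0.19 at 24 h, the lowest value of the 47 in the main fit, and -0.26 ± 0.19 at 48 h. With the GC trend removed its change at 24 h was -0.48, above MCM6 and CHAF1B, and it passed in neither fit.

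In the chromatin assembly list CHAF1B, a subunit of the histone chaperone CAF-1, held 34.8 and 35.4 CPM in DMSO at 24 h, 25.6 and 24.0 under JIB-04 at 24 h, 26.2 and 26.1 in DMSO at 48 h, and 27.7 and 24.1 under JIB-04 at 48 h. The DMSO 24 h libraries were well above the other 6, which overlapped. The change at 24 h was -0.50 ± 0.13 (edgeR adjusted p 0.256, and 0.0142 with the GC trend removed). CHAF1A, the large subunit, held 95.6 and 124 CPM, then 106 and 89.8, then 83.9 and 81.3, and 98.0 and 83.5 CPM, with overlap between JIB-04 and DMSO at both times. SLBP, which binds the stem-loop of histone mRNAs, held 132 and 115 CPM, then 99.4 and 113, then 111 and 116, and 102 and 113 CPM. It differed least of the list between the DMSO groups, by -0.12 ± 0.12.

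Other genes of replication and the cell cycle gave a measure of how far the pattern extended. Of 46 other replication genes, 28 were below 0 at 24 h in the main fit, with a median log2 fold change of -0.02. With the GC trend removed 34 were below 0, with a median of -0.11, and 8 passed as lower and 0 as higher. The lowest value was that of CHTF8, a clamp loader factor, which went from 119.8 and 128 CPM to 89.7 and 71.9 (-0.58 ± 0.06 with the GC trend removed, adjusted p 0.000915). Of 28 other G1/S regulators 26 were tested, with a median of -0.11 in both fits, and with the GC trend removed 7 passed as lower and 3 as higher. The 3 were E2F5 (0.45 ± 0.10), CCNG2, an atypical cyclin of resting cells (0.60 ± 0.12), and MYC, the growth transcription factor (0.41 ± 0.07). Of 38 G2/M genes, 16 passed as lower and 0 as higher with the GC trend removed, and the median was -0.14 in the main fit and -0.18 with the GC trend removed. Between the DMSO groups 22 of 46 other replication genes, 9 of 26 G1/S regulators and 34 of 38 G2/M genes passed as lower with the GC trend removed, and 0, 3 and 0 as higher. The G2/M median there was -0.41 in the main fit and -0.47 with the GC trend removed, beside -0.41 and -0.38 for the 47 members. In the difference between the JIB-04 effects, with the GC trend removed, 1 of 46 other replication genes, 2 of 26 G1/S regulators and 13 of 38 G2/M genes passed as higher, and 0, 1 and 0 as lower. At 48 h, in the same fit, 1, 2 and 9 of them passed as higher with JIB-04 and 1, 1 and 0 as lower. Over all 15248 tested genes, that fit passed 5.17% as lower and 911 genes as higher at 24 h. Between the DMSO groups it passed 7.32% as lower and 1046 genes as higher. In the difference it passed 0.826% as higher and 78 genes as lower, and at 48 h 5.12% as higher and 517 genes as lower. At 48 h the counts of the first 2 lists lay near these shares. No gene of these 3 lists passed in edgeR's main fit in any comparison. At an unadjusted p under 0.05 it had, in the order of the lists, 7, 1 and 3 lower and 0, 3 and 0 higher at 24 h. Between the DMSO groups it had 11, 7 and 26 lower and 0, 3 and 0 higher. Of all tested genes, 4.06% were lower and 1028 genes higher at 24 h, and 5.38% lower and 1043 genes higher between the DMSO groups.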

How the data were processed

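The deposited tables, 1 per time point, gave each library an estimated count per gene, which the authors made with RSEM, per the file headers and the submitters' processing notes. The notes also name cutadapt and STAR 2.6.1. The authors' tables held TPM too, and their own JIB-04 comparison as a log2 fold change and p-value per gene. The sources used here do not say how strand was treated. The 24077 genes in both tables were kept, which left out 0.00581% of counts. Counts were rounded, and 15248 genes met filterByExpr at a minimum count of 10 and a minimum total of 15. A single edgeR 4.0.16 model (R 4.3.3) covered the 8 libraries with TMM scaling and 4 residual degrees of freedom, and two-sided quasi-likelihood F tests were adjusted by Benjamini and Hochberg at 0.05. Values of a gene are given ± SE from this fit, and CPM uses the scaled totals. GC content was taken from GENCODE transcripts, and the trend was a lowess curve (span 0.3) per library. Checks on simulated data used the same code. The alternatives were DESeq2 1.42.0, limma-voom (limma 3.58.1), other scaling, no filter, fits of 2 groups, each time's own table, replicate blocks and leaving out libraries. Library values are given for 12 members and for the extremes of each role group. The members and lists were chosen with earlier results of these data known. Every per-library column could be mapped to a sample.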

Additional observations from a re-analysis of the deposited data

How the results depend on the processing

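The members with their highest level in DMSO at 24 h numbered 45 by CPM and 45 by deposited TPM, 44 of them shared. The counts of passing members, 0 in the main edgeR fit of all 5 comparisons, stayed at 0 with DESeq2 size factors, limma-voom, no filter, fits of 2 groups alone, each time's own table, the replicate block and the omission of any library. They moved with DESeq2 (1 at 24 h and 9 between the DMSO groups) and with the GC trend removed (26 at 24 h, 4 at 48 h, 11 in the difference, 39 between the DMSO groups and 2 between the JIB-04 groups). With the replicate block and the GC trend removed together the counts were 24, 2, 8, 39 and 2. Shares of all genes for DESeq2 and for the GC trend removed stand with the comparisons above. No share stands beside the counts with the block and the GC trend removed together, or those from leaving out a library. A change in those counts may therefore follow the number of genes called in all. Leaving out 1 library with the GC trend removed, an addition made after seeing the data, gave 17, 21, 14, 9, 20, 20, 22 and 21 at 24 h (replicates 1 and 2 of DMSO 24 h, JIB-04 24 h, DMSO 48 h and JIB-04 48 h left out in turn), 0 to 8 at 48 h, and 13, 10, 3, 0, 0, 0, 0 and 2 in the difference. Between the DMSO groups it gave 37, 34, 40, 40, 21, 23, 39 and 39, and between the JIB-04 groups 0 to 5 (1 when a DMSO 48 h library was left out, 3 for JIB-04 24 h replicate 2). Without DMSO 24 h replicate 2, 1 of the 21 at 24 h and 1 of the 34 between the DMSO groups were higher.

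The median log2 fold change kept its sign everywhere. At 48 h, against 0.07 in the main fit, it was 0.06 with DESeq2 size factors, DESeq2, no filter, the 2 groups alone or the 48 h table, 0.07 with the GC trend removed with or without the block, and 0.06 to 0.09 on leaving out a library. In the difference, leaving out a library gave 0.31 to 0.38, with 0.37 among them. Between the DMSO groups it was -0.46 in a fit of 2 groups, and leaving out a library gave -0.43 to -0.34, with -0.35 and -0.34 without a DMSO 24 h library. Between the JIB-04 groups leaving out a library gave -0.10 to -0.03.

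The labels do not say that equal replicate numbers pair the samples, and the numbers showed no pairing common to all 4 groups. Deviations of same-numbered libraries correlated at -0.794 between DMSO and JIB-04 at 24 h, -0.755 between DMSO at 24 h and JIB-04 at 48 h, 0.883 between the JIB-04 groups, and 0.0821 to 0.089 otherwise (7927 genes). Whether these correlations reflect paired samples or the trend along GC content was not tested. The replicate block alone gave 0 passing members in each comparison. A block with the numbers of DMSO at 24 h crossed, added after seeing the data, gave 3 at 24 h, 19 between the DMSO groups and 0 elsewhere. These counts, too, have no share of all genes beside them.

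Of the single genes printed, GC-rich ones changed sign. CDT1 at 24 h, 0.09 in the main fit, ranged from -0.49 to 1.11 on leaving out a library, and was -0.18 without JIB-04 24 h replicate 1. POLD1 at 24 h was 0.05 by limma-voom and ranged from -0.58 to 0.74, with 0.16 without JIB-04 24 h replicate 2. TK1 at 24 h, -0.28 in the main fit, ranged from -0.63 to 0.20, and E2F1 was 0.01 without DMSO 24 h replicate 2. CDT1 between the DMSO groups was 0.04 by limma-voom, 0.13 with the GC trend removed, 0.15 with the block added and -0.75 to 0.86 on leaving out a library. The cause was not tested.

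Each group had 2 libraries and the fit 4 residual degrees of freedom, which limits the precision of every SE and adjusted p given.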
